A study of Mus musculus with 11 samples.

Results

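Mitochondrial ribosomal proteins are made from nuclear genes, translated in the cytosol and imported into the mitochondrion. There they join the mitochondrially encoded ribosomal RNAs in a large and a small subunit, and the assembled ribosome translates the few messenger RNAs of the mitochondrial genome, which encode membrane proteins of the respiratory chain and ATP synthase. In the cleavage embryo mitochondria come from the oocyte and pyruvate oxidation supplies much of the energy. The genes were taken by symbol (Mrpl or Mrps followed by a number) among protein-coding genes, which gave 78 of 54146 genes in the tables, 49 of the large subunit and 29 of the small subunit. A further 5 records with such a symbol (*Mrps36-ps1*, *Mrps36-ps2*, *Mrps36-ps3*, *Mrpl23-ps1* and *Mrpl48-ps*) are pseudogenes and were left out. Symbols keep the historical assignment. *Mrps18a* and *Mrps30* are placed in the large subunit by structures of the mammalian particle, and *Mrps36* is now described as a subunit of the 2-oxoglutarate dehydrogenase complex.

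Expression was measured by Smart-seq2 RNA-seq of 11 single embryos of the C57BL/6 strain, collected at the 8-cell stage on embryonic day 2.5 from intercrosses of mice heterozygous for a deletion in *Prdm10*, which encodes a DNA-binding zinc finger protein. The 6 control embryos were wild-type or heterozygous (*Prdm10* +/+ or Δ/+), which the labels do not tell apart, and the 5 mutant embryos were homozygous for the deletion (*Prdm10* Δ/Δ, also called KO). The deletion removes exon 5, and embryos were assigned to groups by detecting that exon in their cDNA. Each library is a whole embryo, so fewer cells of a type and less RNA per cell cannot be told apart. Batch 1 had 16 cycles of PCR pre-amplification and held 3 control and 2 mutant embryos, and batch 2 had 13 cycles and held 3 of each. Library totals were 3534735 to 8265840 expected counts, of which 21338 to 51669 fell on the 78 genes. The *Prdm10* TPM (a level scaled to transcript length and to the library total) was 11.1 to 24.8 in controls and 4.88 to 8.16 in mutants, so the groups did not overlap. Effective length, by which TPM is divided, also did not overlap for *Prdm10* (2565 to 3357 bases in controls, 4348 to 5051 in mutants). *Prdm10* normalised counts did overlap, at 124 to 381 and 104 to 202, and the gene was not called (log2 fold change -0.66, DESeq2 adjusted p = 0.215). With effective length as an offset it was called lower (-1.29, adjusted p = 2.95e-05), and in batch 1 and batch 2 alone it had -0.40 and -0.86. Summed TPM of 12 markers of the 8-cell embryo was 5105 to 6315 in controls and 5067 to 5892 in mutants, mostly from *Dppa3* (control mean 5132). Of these 12, 1 was called lower in mutants (*Klf17*, log2 fold change -1.10, DESeq2 adjusted p = 0.0210) and 0 higher. Markers of cumulus cells, oviduct and blood summed to at most 81.1, 31.9 and 33.6 TPM in any embryo, with overlapping groups, and their part in the results was not tested. The cumulus sum was nearly all *Amhr2*, and the oviduct sum mostly *Ovgp1*.

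All 78 genes were detected in every embryo, at levels that spread less than those of all genes tested. The third quartile of control mean TPM was 2.75 times the first, beside 11.7 times over all genes tested. The control mean TPM had a median of 79.2 over the 78 genes, with quartiles of 46.9 and 129, and 48 of the 78 lay within 2-fold of that median. The median over the 10448 genes tested was 12.2 TPM, and 77 of the 78 genes were above it. Spread between control embryos had a median coefficient of variation of 20.2%, beside 43.9% over all genes tested. The genes tested were at lower levels, and genes of a like level were not compared. Together the 78 genes held 0.859% to 0.968% of all TPM in controls and 0.889% to 0.920% in mutants.

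The 5 highest genes held 27.8% of the summed control TPM of the family. *Mrpl22*, a large subunit protein with a bacterial counterpart at the exit tunnel, had 662 ± 84.3 TPM (SD, n = 6). *Mrps18b* had 629 ± 54.1 TPM, *Mrpl20* 565 ± 140 TPM, *Mrps24* 321 ± 93.7 TPM and *Mrpl15* 320 ± 32.0 TPM. The ranges of the first 3 overlapped between embryos, so their order is not resolved, and *Mrps24* and *Mrpl15* likewise could not be ordered. At the low end, *Mrpl23* had 5.42 ± 2.81 TPM, *Mrpl11* 16.1 ± 2.92, *Mrpl50* 16.6 ± 5.08, *Mrpl1* 20.9 ± 1.88 and *Mrpl38* 21.6 ± 5.01 (SD, n = 6 each). Every control value of *Mrpl23*, at 1.81 to 10.1 TPM, lay below every control value of *Mrpl11*, at 11.7 to 20.7 TPM. The ranges of *Mrpl11*, *Mrpl50*, *Mrpl1* and *Mrpl38* overlapped.

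**Figure D1:**
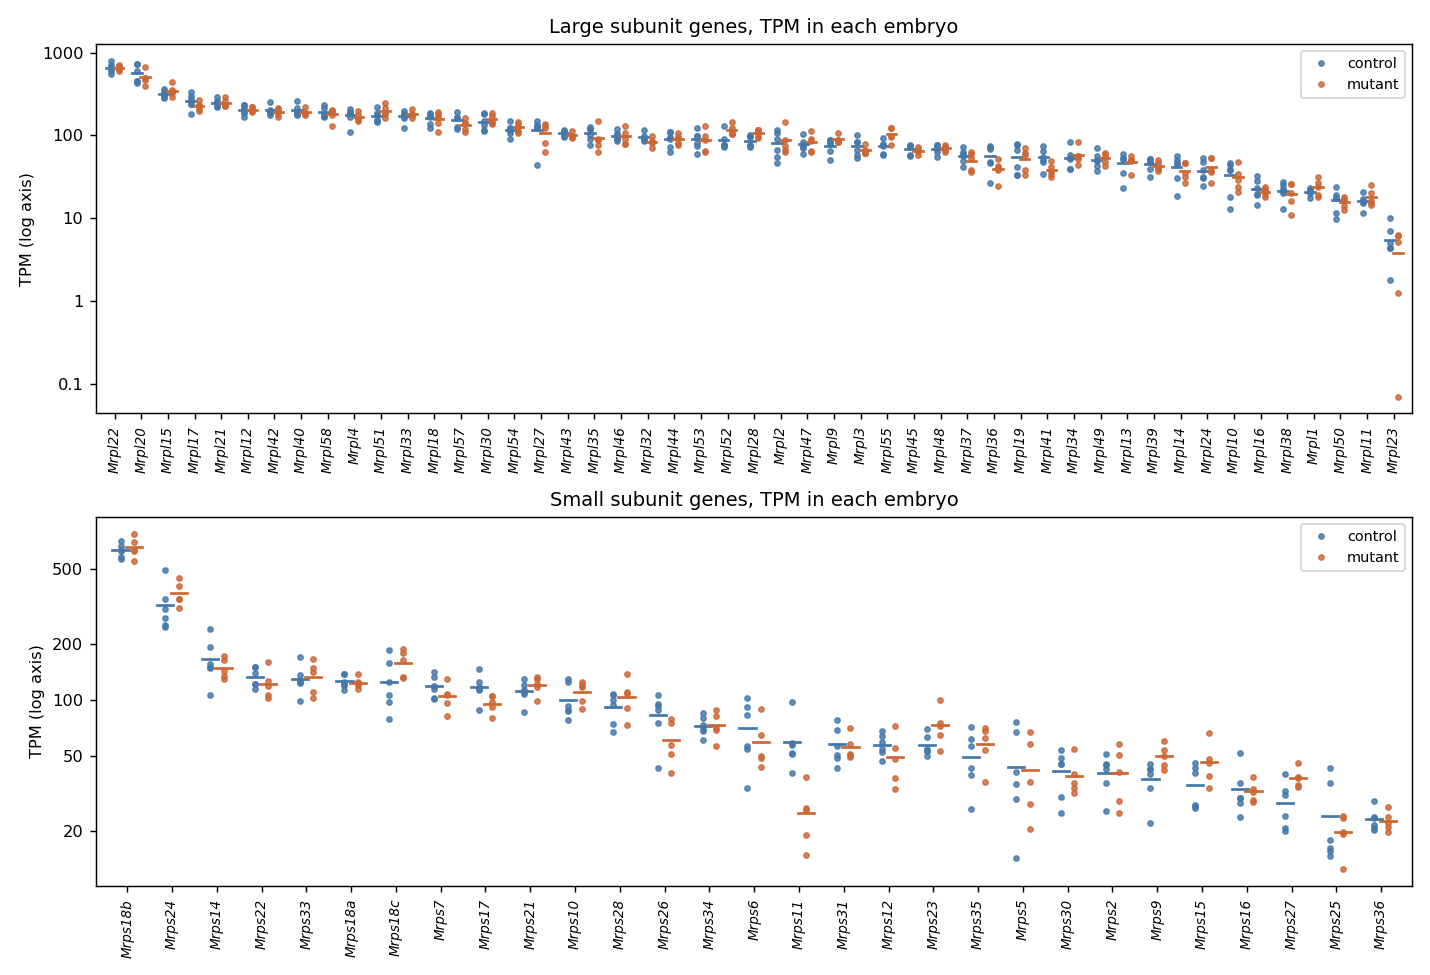
TPM on a log axis for each of the 49 large subunit genes (top) and 29 small subunit genes (bottom), ordered by control mean. Points are single embryos (6 control, 5 mutant) and short lines are group means. *Mrpl22*, *Mrpl20* and *Mrps18b* lead, *Mrpl23* is lowest, and *Mrps11* is the gene whose control and mutant points separate.

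The level of *Mrpl23* carries a limit of counting. RSEM divides reads that match several genes, and the pseudogene *Mrpl23-ps1* was given 76.6 to 319 expected counts per embryo while *Mrpl23* was given 1.02 to 32.2. *Mrpl23* thus took 0.634% to 13.4% of the reads of the pair, and its level is uncertain.

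Summed over 49 large and 29 small subunit genes, transcripts of the large subunit outnumbered those of the small subunit in each embryo. The summed TPM of the large subunit genes was 5987 ± 302 in the 6 controls and 5930 ± 120 in the 5 mutants (± SD). The small subunit genes summed to 2986 ± 246 TPM in controls and 3037 ± 77.1 TPM in mutants. The ratio of the sums was 1.82 to 2.16 in controls and 1.85 to 2.02 in mutants, so the mutant range lay within the control range. With *Mrps18a* and *Mrps30* counted in the large subunit, the ratio was 1.96 to 2.36 in controls and 2.01 to 2.20 in mutants. The sums thus compare unequal numbers of genes. Median control mean TPM per gene was 86.5 for the large and 70.6 for the small subunit. Within control replicate 3 the medians per gene were 75.2 TPM for the large and 80.1 TPM for the small subunit. In every other embryo the large subunit median was the higher. The 48 genes whose proteins have a bacterial counterpart had a median of 83.5 TPM and the 30 without one, *Mrps36* among them, 70.9 TPM, a grouping made after the values were seen and not tested.

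To ask whether loss of PRDM10 altered these transcripts, mutant and control embryos were compared with a DESeq2 Wald test over all genes, with batch as a term. A gene was called changed at a mean normalised count above 10 and a Benjamini-Hochberg adjusted p under 0.05. All 78 genes were tested, 1 was called lower in mutants (*Mrps11*), and 0 were called higher. Over all genes, 0.881% were called lower and 0.565% higher, so 1 of 78 (1.28%) is near the background. The edgeR quasi-likelihood test called 0 of the 78, beside 0.324% of all genes, with 5 of the 78 (6.41%) at an unadjusted p under 0.05 beside 9.50%. In DESeq2, 8 of the 78 (10.3%) had an unadjusted p under 0.05, 3 lower and 5 higher, beside 11.9% of all genes. The median log2 fold change was -0.04 for large subunit genes, with 28 of 49 below 0, and -0.01 for small subunit genes, with 15 of 29 below 0. Over all genes tested the median was 0.00 (50.2% below 0). Sizes of change were small, with a median absolute log2 fold change of 0.11 over the 78 genes beside 0.27 over all genes, which were at lower levels. Within batches the medians were -0.09 for the large and -0.02 for the small subunit in batch 1, and 0.04 and -0.03 in batch 2. The large subunit median thus had opposite signs in the batches, and the small subunit median was just below 0 in both. Without single embryos the large subunit median ran from -0.08 to 0.02, and the small subunit median from -0.06 to 0.03.

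**Figure D2:**
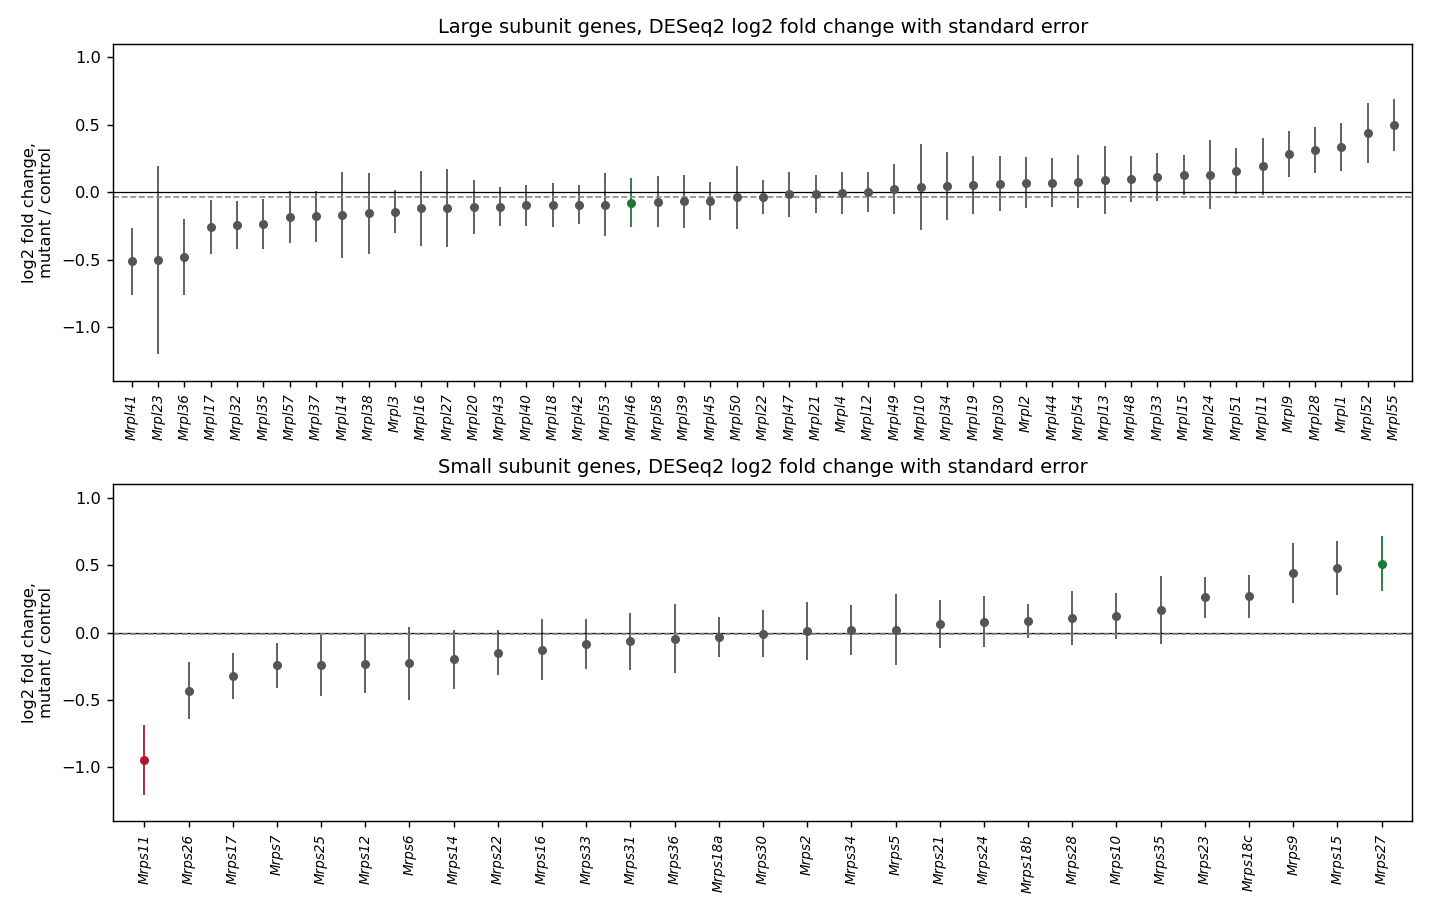
DESeq2 log2 fold change of mutant against control embryos, with its standard error as the bar, for each large subunit gene (top) and small subunit gene (bottom) in order of size. Red marks the gene called changed (*Mrps11*, -0.95), green the other PRDM10-bound genes (*Mrpl46*, -0.08, and *Mrps27*, 0.51), and the dashed lines are the medians of -0.04 and -0.01.

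Of the 78 genes, 3 were on the study's list of genes bound by PRDM10 in mouse embryonic stem cells, a list made from other samples. These were *Mrps11* and *Mrps27* of the small subunit and *Mrpl46* of the large subunit. *Mrps11* encodes the counterpart of bacterial ribosomal protein uS11, which sits on the platform of the small subunit. *Mrpl46* encodes a large subunit protein particular to mitochondria, and *Mrps27* a pentatricopeptide repeat protein of the small subunit. Both *Mrps11* (ENSMUSG00000030611.10, chr7:78783119-78792989, plus strand, GRCm38) and *Mrpl46* (ENSMUSG00000030612.6, chr7:78775236-78783531, minus strand) are read outwards from 1 promoter region. Their RefSeq start sites are 42 bases apart, and in the annotation used their first exons overlap. The promoter windows are shown because the first 2 genes share this sequence. Each window runs from 250 bases before to 50 bases after the RefSeq start (GRCm38.p6), 5′ to 3′ on the strand of the gene. Capitals mark matches to TGGTNNNNNCC, the letters used for the PRDM10 motif, on either strand.

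*Mrps11*, chr7:78782881-78783180, plus strand: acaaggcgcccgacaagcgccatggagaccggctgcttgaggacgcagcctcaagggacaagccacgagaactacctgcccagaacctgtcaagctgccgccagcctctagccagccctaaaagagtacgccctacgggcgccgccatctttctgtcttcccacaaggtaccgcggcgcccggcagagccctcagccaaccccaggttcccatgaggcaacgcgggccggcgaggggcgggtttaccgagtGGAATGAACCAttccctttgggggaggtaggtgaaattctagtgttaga

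*Mrpl46*, chr7:78783040-78783339, minus strand: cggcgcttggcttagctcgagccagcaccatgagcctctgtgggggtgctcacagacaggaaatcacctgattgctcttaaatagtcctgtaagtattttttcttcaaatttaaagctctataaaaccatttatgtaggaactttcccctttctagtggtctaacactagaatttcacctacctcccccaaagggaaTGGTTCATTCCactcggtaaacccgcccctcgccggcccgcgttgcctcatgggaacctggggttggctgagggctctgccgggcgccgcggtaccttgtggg

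*Mrps27*, chr13:99344536-99344835, plus strand: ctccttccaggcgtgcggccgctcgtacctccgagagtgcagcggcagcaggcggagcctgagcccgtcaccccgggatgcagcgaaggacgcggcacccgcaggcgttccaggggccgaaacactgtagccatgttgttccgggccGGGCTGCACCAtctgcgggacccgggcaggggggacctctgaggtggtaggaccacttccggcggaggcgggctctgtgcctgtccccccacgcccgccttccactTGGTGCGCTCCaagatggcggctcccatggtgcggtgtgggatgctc

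The match in the *Mrps11* and *Mrpl46* windows is the same stretch, chr7:78783132-78783142, read from opposite strands. It begins 1 base after the RefSeq start of *Mrps11* and lies upstream of the RefSeq start of *Mrpl46*. By the GENCODE positions given above it lies inside both genes. *Mrps27* (ENSMUSG00000041632.7, chr13:99344786-99415562, plus strand) has 2 matches, at chr13:99344683-99344693 and chr13:99344789-99344799. The wild-type and mutated gel-shift probes of the study are given for comparison, with the 8 bases that differ in capitals.

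WT probe: ctggcacagTGGTcgcGCCCggcccgcc

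MUT probe: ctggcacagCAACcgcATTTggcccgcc

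A window search for the changed bases alone, TGGTNNNGCCC, which is contained in the first motif, matched *Mrps27* and *Mrpl48* among the 69 genes of the family with a promoter window (2 of 75 windows, 2.67%, beside 1.45% of all windows), and matched neither *Mrps11* nor *Mrpl46*. TGGTNNNNNCC itself was found in 11 of 75 windows of the family (14.7%) and in 13.8% of all 32851 windows of the same length. A match is a description of letters and not of binding.

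*Mrps11* was lower in every mutant embryo. Its normalised count in controls was 165 at lowest, 207 at the median and 306 at highest. In mutants it was 71.7, 133, 113, 152 and 75.6. All 5 mutants lay below all 6 controls, and the means were 215 ± 48.6 (SD, n = 6) and 109 ± 35.1 (SD, n = 5). In batch 1 the control and mutant means were 236 and 114, and in batch 2 they were 194 and 106, so the difference had the same direction and a like size in both. This gave -0.95 ± 0.26 (SE) on the log2 scale (DESeq2 adjusted p = 0.0292). It was the only gene of the 78 whose groups did not overlap, overall or within both batches. Among all genes tested, 0.632% had every mutant below every control and 0.287% every mutant above, and within both batches 1.41% and 1.33% did. The call did not hold in edgeR (log2 fold change -0.94, adjusted p = 0.220) or in limma on log2(TPM + 1) (-1.20, adjusted p = 0.0619). In DESeq2 it was lost with no batch term (adjusted p = 0.0691), in batch 1 alone (0.383) and in batch 2 alone (0.554), and also without control replicate 3, 5 or 6 or mutant replicate 1, 3 or 5. Over all 11 omissions of an embryo the adjusted p ran from 0.0149 to 0.232 and the log2 fold change from -1.11 to -0.79.

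The TPM of *Mrps11* showed a larger difference than its counts. It was 41.0 to 97.4 TPM in controls, with a median of 54.7, and 14.8, 26.4, 25.9, 38.8 and 19.0 TPM in mutants. Again no mutant reached the lowest control. The mean difference on the log2(TPM + 1) scale was -1.24 (exact permutation test within batches, two-sided, p = 0.005, the smallest that the 200 arrangements allow). TPM divides by an effective length that RSEM averages over the isoforms given reads, and this length did not overlap between groups. For *Mrps11* it was 725 to 809 bases in controls and 872 to 982 bases in mutants, a comparison chosen after its values were seen and therefore given with no test. *Mrps11* was the only gene of the 78 whose effective lengths did not overlap between groups (1.28%), beside 0.383% of all genes. GENCODE vM21, a later release than the vM18 used for quantification, lists 6 *Mrps11* transcripts of 548 to 1056 bases. The longest starts at 78783119, ahead of the motif match, and the other 5 start between 78783313 and 78783371. With effective length as an offset in DESeq2, the log2 fold change was -1.18 (adjusted p = 0.00335). Isoform values are not analysed here.

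*Mrpl46*, on the other side of the same promoter region, had overlapping groups. Its normalised count in controls was 381 at lowest, 481 at the median and 622 at highest, and in mutants it was 681, 599, 481, 352 and 368. The means were 496 ± 96.6 (SD, n = 6) and 496 ± 143 (SD, n = 5), and the log2 fold change was -0.08 ± 0.18 (SE, DESeq2 adjusted p = 0.934). Both mutants of batch 1 lay below its controls, and the mutants of batch 2 ran from 481 to 681 beside 438 to 622 in controls. On the log2(TPM + 1) scale the difference was -0.05 (exact permutation test within batches, two-sided, p = 0.720). Its effective length was 1060 bases in every embryo. Libraries did not keep strand, so reads from the stretch where exons of *Mrps11* and *Mrpl46* overlap cannot be assigned by strand. Whether the 2 genes differ in their change was not tested.

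*Mrps27* went the other way without passing the threshold. Its normalised count in controls was 182 at lowest, 208 at the median and 304 at highest, and in mutants it was 331, 404, 304, 268 and 269. Of the 5 mutants, 3 lay above every control. The log2 fold change was 0.51 ± 0.21 (SE), with an adjusted p of 0.244 (unadjusted 0.0133). Batch 2 controls averaged 192 and its mutants 346 with no overlap, and in batch 1 the averages were 257 and 269 with the mutants inside the control range. The batch by group interaction had an unadjusted p of 0.0340 and an adjusted p of 1.00 for *Mrps27*. TPM differed by 0.48 on the log2(TPM + 1) scale (exact permutation test within batches, two-sided, p = 0.0450), which was not under 0.05 without any one of the 6 controls other than replicate 5 or without mutant replicate 4 or 5. Adjusted over the 3 genes tested this way by the Benjamini-Hochberg method, the permutation p was 0.0675 for *Mrps27*, 0.0150 for *Mrps11* and 0.720 for *Mrpl46*.

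**Figure D3:**
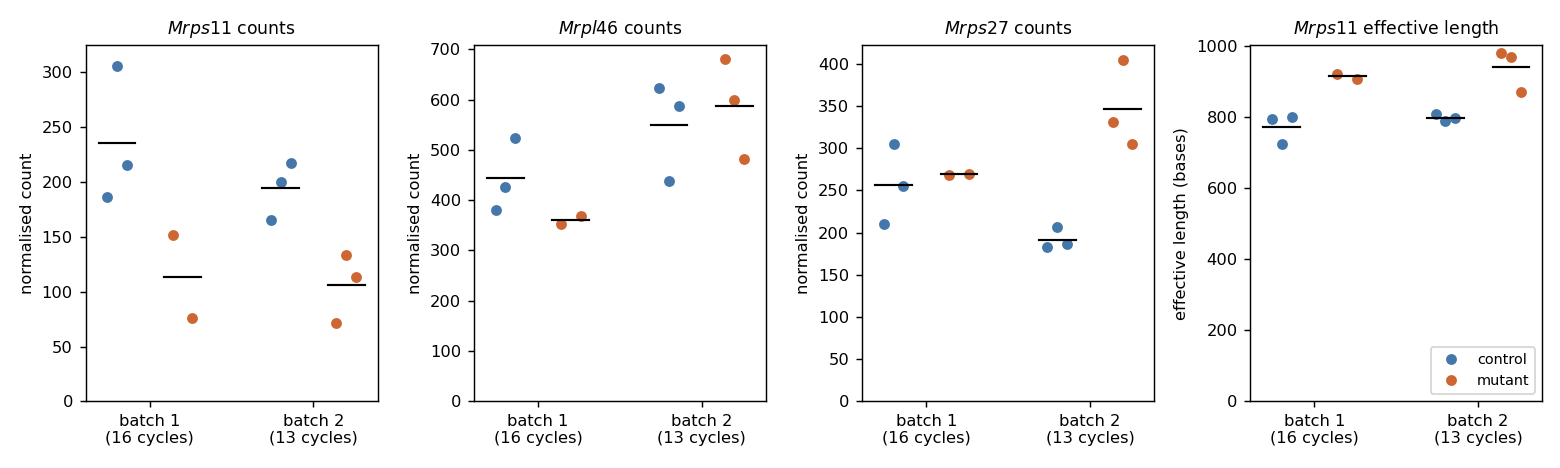
Normalised counts of *Mrps11*, *Mrpl46* and *Mrps27*, and effective length of *Mrps11* in bases, for each embryo by batch and group, with lines at the group means. All *Mrps11* mutants lie at 152 counts or fewer and at 872 bases or more, while *Mrpl46* overlaps and *Mrps27* separates in batch 2 alone.

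No other gene of the family passed the threshold. The next largest falls were those of *Mrpl41* (log2 fold change -0.51), *Mrpl23* (-0.50), *Mrpl36* (-0.48) and *Mrps26* (-0.43), with DESeq2 adjusted p-values of 0.408, 0.868, 0.529 and 0.407. *Mrpl41* had 115 to 260 normalised counts in controls and 97.3 to 171 in mutants, with 2 mutants below every control. *Mrpl36*, the counterpart of a small bacterial large subunit protein, had 111 to 310 in controls and 100.4 to 185 in mutants. *Mrps26* had 238 to 551 in controls and 236 to 368 in mutants. *Mrpl23* had 4.92 to 25.6 in controls and 1.04 to 24.4 in mutants. Each of these groups overlapped. In batch 1 and batch 2 alone the log2 fold changes were -0.76 and -0.32 for *Mrpl41*, and -0.98 and -0.16 for *Mrpl23*. Single embryos also moved some of these folds, for *Mrpl23* to -0.13, -0.31, -0.80 and -0.90 without mutant replicates 5, 1, 2 and 4 and to -0.32 without control replicate 5, to -0.28 for *Mrpl36* without control replicate 1, and to -0.28 for *Mrps26* without control replicate 3.

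The largest rises after *Mrps27* were those of *Mrpl55* (0.50), *Mrps15* (0.48), *Mrps9* (0.44) and *Mrpl52* (0.44), with DESeq2 adjusted p-values of 0.207, 0.271, 0.424 and 0.431. *Mrpl55* had 215 to 294 normalised counts in controls and 272 to 453 in mutants, and 4 of 5 mutants were above every control. For *Mrps9*, the counterpart of bacterial uS9, 4 of 5 mutants were also above every control, at 245 to 405 beside 141 to 269, and its log2 fold change was 0.12 in batch 1 alone, 0.69 in batch 2 alone and 0.29 without control replicate 1. *Mrps15* had 113 to 173 in controls and 144 to 235 in mutants, and *Mrpl52* 100.1 to 216 and 139 to 268. The effect of genotype differed between batches for 0 of the 78 genes by the interaction term, beside 0.0382% of all genes, and *Mrps27* was the 1 gene (1.28%) at an unadjusted p under 0.05 beside 4.30%. The edgeR interaction test also called 0 of the 78, and its share over all genes was not computed.

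Other genes of mitochondrial translation were then read from the same fit. The list held 53 genes, of which 52 were matched and 51 tested. In mutants, 2 were called lower (*Mterf3* and *Lrpprc*) and 0 higher, and 6 (11.8%) had an unadjusted p under 0.05, beside 0.881%, 0.565% and 11.9% of all genes. The median log2 fold change over the 51 was 0.01. Of the 53, 4 were on the list of bound genes (*Dap3*, *Ptcd3*, *Mterf3* and *Lrpprc*), and both called genes were among them. Of all bound genes tested other than *Prdm10*, 39 of 325 (12%) were called lower in mutants and 0 higher, *Mrps11* included. Subunits of the ribosome with other symbols (*Dap3*, *Chchd1*, *Ptcd3*, *Aurkaip1* and *Gadd45gip1*) gave 0 calls of 5, the translation factors 0 of 14, and the assembly and modification factors 1 of 23. The 4 genes of mitochondrial transcription (*Tfam*, *Tfb2m*, *Polrmt* and *Mterf1a*) gave 0 calls. Mitochondrial ribosomal RNA, which oligo-dT priming captures only in part, was not called either, with log2 fold changes of -0.06 for *mt-Rnr1* and -0.04 for *mt-Rnr2*.

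*Mterf3* encodes a mitochondrial protein that acts on transcription and on ribosome biogenesis. Its normalised count in controls was 337 to 612, and in mutants it was 348, 299.6, 167, 206 and 229. In each batch all mutants lay below all controls, and over both batches the highest mutant lay just above the lowest control. The log2 fold change was -0.96 ± 0.20 (SE), with adjusted p-values of 0.000640 in DESeq2 and 0.0462 in edgeR. The call was lost in limma (adjusted p = 0.0843), with no batch term (0.0704) and in each batch alone (0.353 and 0.105).

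*Lrpprc* encodes a protein that stabilises mitochondrial messenger RNA. Its normalised count was 151 to 589 in controls and 248, 112, 81.9, 103 and 60.0 in mutants. Mutant replicate 1 lay inside the control range and the other 4 below it. The log2 fold change was -1.60 ± 0.35 (SE), with an adjusted p of 0.00118 in DESeq2, and the call did not hold in edgeR (adjusted p = 0.0755), in limma (0.259), with no batch term (0.0517) or in batch 2 alone (0.156).

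*Dap3*, a GTP-binding subunit of the small subunit, had 67.3 to 155 normalised counts in controls and 37.1 to 121 in mutants, and its log2 fold change was -0.69 ± 0.33 (SE, DESeq2 adjusted p = 0.408). *Ptcd3*, a pentatricopeptide repeat subunit, differed by 0.03 on the log2 scale (DESeq2 adjusted p = 0.981).

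**Figure D4:**
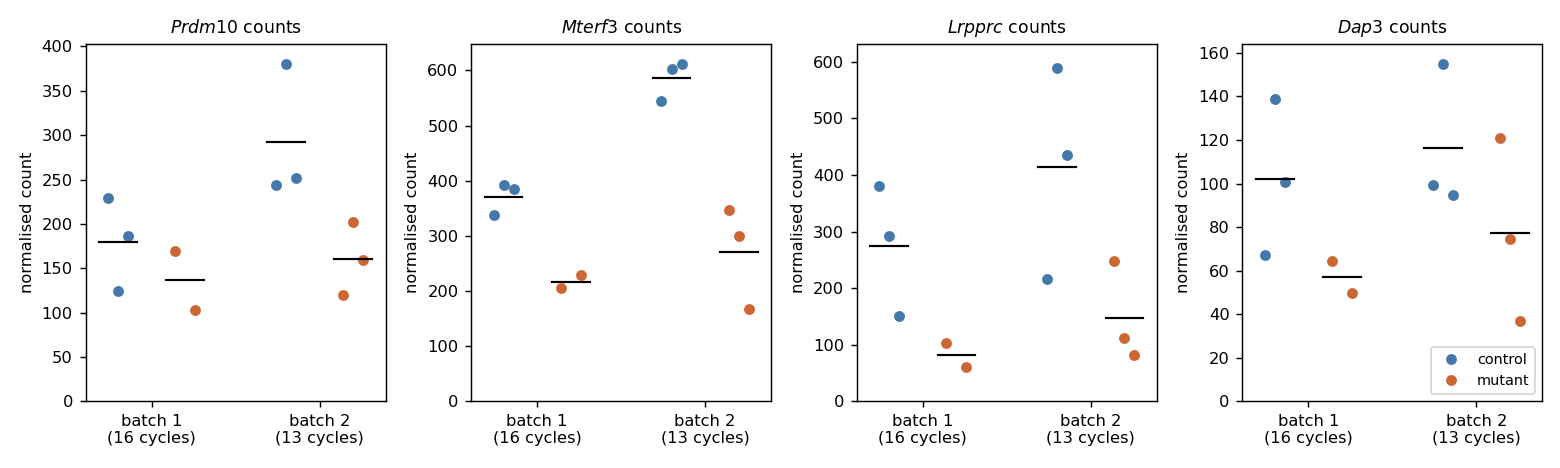
Normalised counts of *Prdm10* and of 3 PRDM10-bound genes of mitochondrial translation (*Mterf3*, *Lrpprc* and *Dap3*) for each embryo by batch and group, with lines at the group means. *Mterf3* separates within each batch, *Lrpprc* has 1 high mutant in batch 2, and *Dap3* overlaps.

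Differences between the batches were wider than those between genotypes. In batch 2 against batch 1, 15 of the 78 genes (19.2%) were called higher and 2 (2.56%) lower by the DESeq2 batch term, beside 13.8% and 14.0% of all genes. The share called higher fell below that of all genes without control replicate 3 (7.69% beside 12.3%) or 4 (8.97% beside 12.5%). It was also below without control replicate 5 (11.5% beside 11.6%) or mutant replicate 4, and above without any other single embryo. An excess of genes called higher thus depended on single embryos. The median log2 difference was 0.16 for the large and 0.24 for the small subunit, and 0.00 over all genes. Of the 78 genes, 59 (75.6%) were above 0, beside 50.1% of all genes. The split of calls depended on the scale, and the lean relative to all genes was alike on both. In limma on log2(TPM + 1) the median of all genes moved to -0.20 and that of the 78 genes was 0.01, a difference of 0.21 beside 0.22 in DESeq2. Without single embryos the DESeq2 difference ran from 0.14 (without control replicate 4) to 0.24 (without control replicate 2). On the log2(TPM + 1) scale 51.3% of the 78 genes and 37.3% of all genes were above 0. In limma 3 (3.85%) of the 78 were called higher and 6 (7.69%) lower, beside 5.65% and 18.2% of all genes. Among control embryos alone, 1 of the 78 (*Mrps6*, 1.28%) was called higher and 0 lower, beside 6.76% and 7.77% of all genes.

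The largest batch rises were those of *Mrps18c* (log2 difference 0.78, adjusted p = 3.34e-05), *Mrps6* (0.78, adjusted p = 0.0197) and *Mrps25* (0.72, adjusted p = 0.0115). *Mrps18c*, a small subunit protein with a bacterial counterpart, had 191 to 283 normalised counts in batch 1 and 331 to 473 in batch 2. For *Mrps25* the sign turned with an effective-length offset (-0.03) and on log2(TPM + 1) (-0.23). The 2 falls were those of *Mrps5* (-0.91, adjusted p = 0.00424) and *Mrpl2* (-0.51, adjusted p = 0.0326). The *Mrpl2* call was lost in 10 of 18 alternatives (adjusted p of 0.0580 to 0.175), among them edgeR (0.0667), control embryos alone, and the fits without control replicate 1, 2, 4, 5 or 6 or mutant replicate 1, 2 or 5. The *Mrps6* call was lost in 7 of 18 (0.0513 to 0.113), namely limma and the fits without control replicate 1, 3, 4 or 5 or mutant replicate 3 or 4. In control embryos alone *Mrps18c* (0.0614), *Mrps5* (0.0918) and *Mrps25* (0.468) were not called, and *Mrps25* was not called without mutant replicate 5 (0.0760). *Mrps5* had 158 to 204 counts in batch 1 and 64.3 to 146 in batch 2. PCR cycle number and whatever else differed between the batches cannot be told apart. Marker genes also differed between batches, and their part in these differences was not tested. Of the 12 embryo markers, 5 were called lower in batch 2 (*Pou5f1*, *Tfap2c*, *Tead4*, *Nanog* and *Klf17*) and 1 higher (*Dppa3*, log2 difference 0.43). Summed cumulus markers were 42.9 to 81.1 TPM in batch 1 and 19.4 to 30.5 in batch 2, with *Amhr2* called lower (-1.38). These sums were nearly all *Amhr2* (control mean 46.6 TPM), and *Foxl2*, *Has2* and *Ptx3* were at 0 in every embryo. Summed oviduct markers were 0 to 0.81 TPM in batch 1 and 1.59 to 31.9 in batch 2, with *Ovgp1* called higher (5.87). *Ovgp1* averaged 10.3 TPM in mutants, beside 0.24 for *Foxj1*, 0.14 for *Pax8* and 0.04 for *Muc16*. Summed blood markers were 1.24 to 5.90 and 2.29 to 33.6 TPM, with *Hba-a2* called higher (2.99). *Hba-a1* was not called (0.50), and *Hbb-bt* was at 0 in every embryo.

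**Figure D5:**
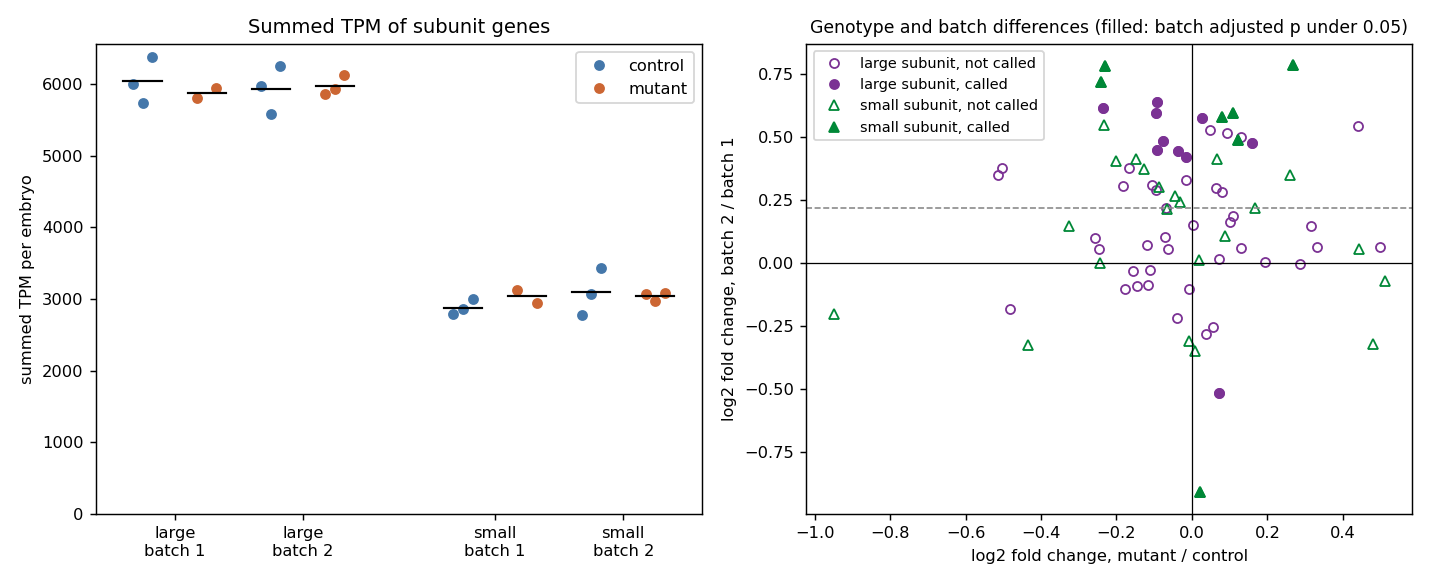
Left, summed TPM of large and small subunit genes in each embryo, by batch and group, with lines at the means, showing sums of 5582 to 6379 and 2781 to 3429 TPM with overlapping groups. Right, the log2 fold change by genotype against that by batch for each gene, filled where the batch term was called (15 above and 2 below 0), with the dashed line at the median batch difference of 0.22.

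The genes of the family lay on 17 chromosomes and often had a close divergent neighbour. A protein-coding gene starting within 1000 bases and read from the opposite strand was found for 33 of the 78 (42.3%), beside 18.5% of the 9526 protein-coding genes tested. *Mrps11* and *Mrpl46* were the 1 such pair within the family. Partners included *Ndufs6*, a complex I subunit gene, beside *Mrpl36*, *Twnk*, the mitochondrial DNA helicase gene, beside *Mrpl43*, and *Sars2*, a mitochondrial aminoacyl-tRNA synthetase gene, beside *Mrps12*. These were picked for their mitochondrial products, and the partners also included *Hira*, *Klc4*, *Eme1*, *Tcp1* and *Rab6a*. The share of partners with mitochondrial products was not counted. Exons of 33 of the 78 genes overlapped exons of another gene, where unstranded reads cannot be assigned by strand. Promoter windows were searched on both strands for letters of factors known at nuclear genes for mitochondrial proteins. The ETS letters CCGGAAG were in 26 of 75 windows (34.7%) beside 8.86% of all windows, the NRF1 letters GCGCANGCGC in 13 (17.3%) beside 4.60%, and the YY1 letters AAGATGGCG in 8 (10.7%) beside 1.40%. The E-box CACGTG was in 7 (9.33%) beside 7.15%. The YY1 letters were in the windows of both *Mrps11* and *Mrps27*. These shares describe the letters of the windows and were not tested.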

How the data were processed

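Libraries of 11 single embryos were analysed. Per the labels and the study's methods, the authors aligned reads with STAR (version 2.6.0c) to GRCm38.p6 and quantified genes with RSEM against GENCODE vM18. The deposited tables hold expected counts, in which reads shared between genes are divided, TPM and effective length. The authors' deposited comparison table was not used. No molecular identifiers were used. Replicates are single embryos, and p-values measure the spread between embryos. The lowest chi-square per degree of freedom between 2 libraries was 16.9, so no library was a duplicate.

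Expected counts were rounded. DESeq2 (version 1.42.0, R version 4.3.3) was run on all genes with batch and group as terms and unshrunken fold changes, calling genes whose mean normalised count exceeded 10 and whose adjusted p was under 0.05. Alternatives were edgeR (version 4.0.16), limma (version 3.58.1) on log2(TPM + 1), TMM factors, other count minimums, a length offset, no batch term, single batches and leaving out each embryo. On data simulated for the mutant against control comparison (10489 genes, 200 changed, 3 simulations), DESeq2 recovered 63.8% of changed genes with 18.7% of its calls false, and edgeR 52.2% with 5.27% false. Changed genes were given log2 fold changes of 1 or more in size. Those of the 78 genes ran from -0.95 to 0.51, and recovery of changes of that size was not simulated. Symbols and positions came from GENCODE vM21, a different release from the vM18 of the files on the same build, and promoters from RefSeq (69 of 78 genes matched). Genes were named by a rule: *Prdm10*, called genes, bound genes, the 5 highest and lowest levels, the 5 largest falls and rises, and the largest batch differences. The members and lists were chosen with earlier results of these data known.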

Additional observations from a re-analysis of the deposited data

Results flagged for a closer look

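A single embryo stood far from the rest of its group in 4 of 64 groups of values checked, where chance flags about 5%. The *Mrps11* normalised count reached 306 in control replicate 5, whereas the other controls had 165 to 217, and without that embryo the log2 fold change was -0.85 (DESeq2 adjusted p = 0.0937). The *Mrps11* effective length was 725 bases in that embryo, against 788 to 809 in the remaining controls. The *Mrpl1* normalised count was 319 in mutant replicate 1 and 219 to 247 in the other mutants. The *Lrpprc* normalised count was 248 in mutant replicate 1 and 60.0 to 112 in the other mutants.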

How the results depend on the processing

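The number of genes of the family called lower in mutants was 1, and it was 0 in edgeR, in limma on log2(TPM + 1), with no batch term, in batch 1 alone and in batch 2 alone. Over all genes those fits called 0.248%, 0.200%, 0.363%, 0.455% and 0.344% lower, in that order. Without single embryos the family count ran from 0 to 1, beside 0.567% to 1.08% of all genes. It was 0 without control replicate 3, 5 or 6 or mutant replicate 1, 3 or 5. *Mrps11* was below 0 in all 20 alternatives, with log2 fold changes of -1.20 to -0.79 and adjusted p of 0.00335 to 0.554. The count called higher was 0 in all 20, beside 0.00953% (limma) to 1.43% (without control replicate 2) of all genes. The count lower in batch 2 was 2 (2.56%, beside 14.0% of all genes). It was 1 in edgeR (1.28% beside 10.9%), 6 in limma (7.69% beside 18.2%) and 3 with a length offset (3.85% beside 12.9%). In control embryos alone it was 0 (beside 7.77%), and without single embryos 1 to 2 (beside 11.3% to 14.4%). The count higher in batch 2 was 15, and 20 at a mean count above 100, 3 in limma and 1 in control embryos alone, and 6 to 17 without single embryos (6 without control replicate 3, 7 without control replicate 4, 8 without mutant replicate 4, 9 without control replicate 5 or mutant replicate 5). The count of other mitochondrial translation genes was 2, and 1 in edgeR, 0 in limma, 0 with no batch term, 1 in batch 1 alone and 0 in batch 2 alone, all chosen after seeing the data. The large minus small difference in median log2 fold change was -0.03, -0.074 in batch 1 alone, 0.067 in batch 2 alone and 0.028 with no batch term, and it ran from -0.041 to 0.021 without single embryos, above 0 without control replicate 6 or mutant replicate 2 or 4. *Mrpl46* turned to 0.0013 with no batch term and 0.095 in batch 2 alone, and its TPM difference ran from -0.16 to 0.023 without single embryos. The *Mrps27* TPM difference ran from 0.39 to 0.59 without single embryos, with exact permutation p of 0.0167 to 0.08, and 7 of these 11 were not under 0.05. *Mrps25* between batches turned to -0.23 in limma and -0.031 with a length offset. The causes were not tested. No paired analysis was possible because replicate numbers do not pair embryos.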
